A study of Mus musculus with 9 samples.

Results

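The 10 genes described here mark successive stages of the oligodendrocyte lineage and were followed in mouse spinal cord after complete transection. They comprised the transcription factors Olig2, Olig1 and Nkx2-2, the precursor surface and matrix genes Pdgfra, Cspg4 and Matn4, the committed and newly forming stage genes Gpr17, Bcas1 and Enpp6, and the maturation factor Myrf. The genes were chosen by symbol, 10 of the 34745 genes in the deposited table, and all 10 passed the filter on low counts. Poly-A RNA of cord tissue was sequenced in 9 libraries, 3 each at day 0 (titled N), day 3 (titled S3d) and day 21 (titled S21d) after complete transection at T9. The labels state no genotype, strain, sex or age of the mice, no length of cord and no word on surgery at day 0. No sham group is among the samples, and nothing in the labels says that the libraries of a group came from separate mice. The p-values therefore measure library-to-library spread only, which may be technical.

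Oligodendrocyte precursors are dividing glia that persist in the adult cord, where they respond to platelet-derived growth factor through the receptor encoded by Pdgfra. On commitment they switch off that receptor, pass through a short stage marked by Gpr17, then turn on Bcas1, Enpp6 and, under the control of Myrf, the genes of myelin. In the injured cord precursors are known to divide and to form new oligodendrocytes around the lesion. Pdgfra is also made by fibroblasts and Cspg4 by pericytes, Olig2, Olig1 and Bcas1 are made in mature oligodendrocytes as well, and in bulk tissue fewer cells of a type and less RNA per cell cannot be told apart.

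The lineage genes did not move as a block at day 3. Against day 0, the 3 precursor surface and matrix genes and Gpr17 rose, Olig2, Olig1 and Enpp6 fell, and Nkx2-2, Bcas1 and Myrf were not called. A gene was called at an edgeR adjusted p under 0.05, over all 16494 genes tested. By that rule 4 of the 10 genes were higher at day 3, where 24.8% of all tested genes were called higher, and 3 were lower, where 19.5% of all were called lower. Against day 0, 1 gene (Matn4) was higher at day 21, with 17.9% of all genes called higher, and 2 (Olig2 and Olig1) were lower, with 11.3% of all called lower. From day 3 to day 21, 3 genes fell (Pdgfra, Cspg4 and Gpr17), with 16.1% of all genes called lower. In that comparison edgeR called 0 genes of the 10 higher, with 11.7% of all called higher, and 0 were higher at an unadjusted p under 0.05 or by DESeq2. The day 3 and day 21 comparisons with day 0 share the day 0 libraries. The median log2 fold change of the 10 genes was -0.012 at day 3 and -0.195 at day 21 against day 0, and -0.257 at day 21 against day 3, beside medians of 0.008, 0.018 and 0.016 over all genes tested.

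**Figure D1:**
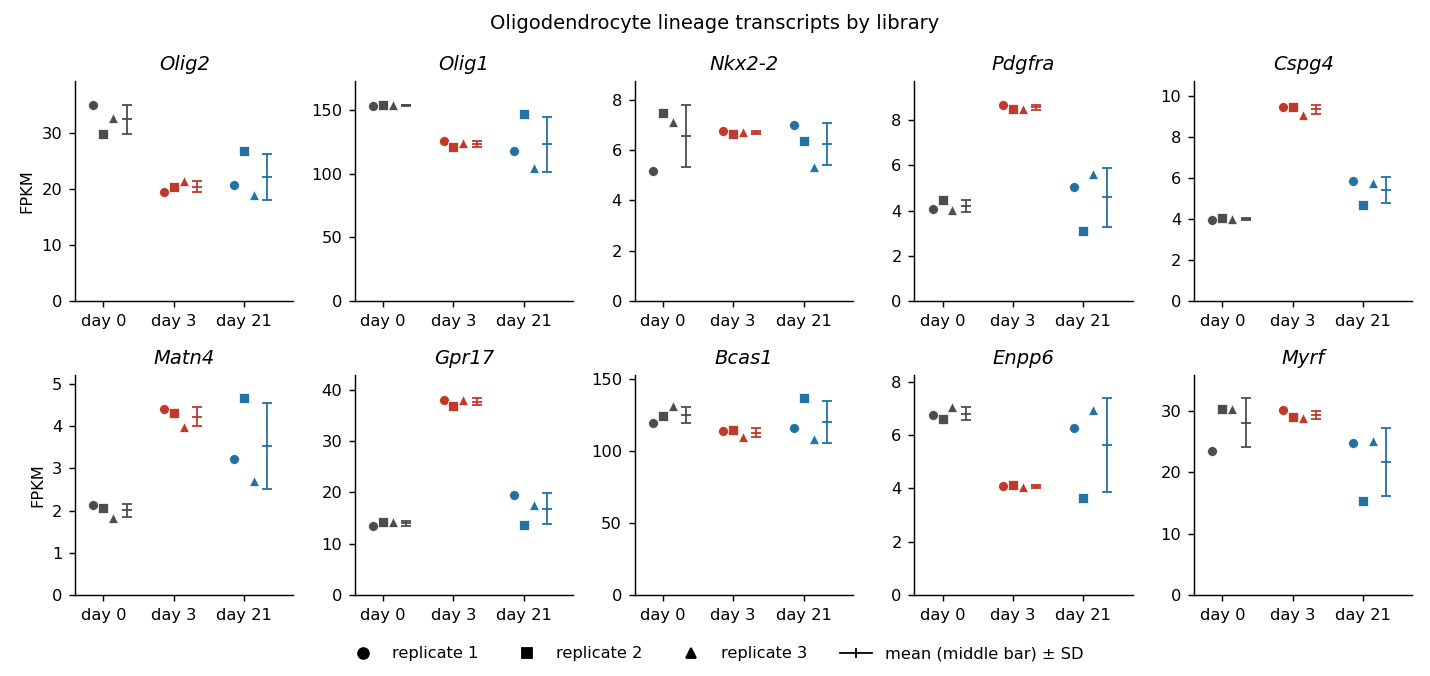
Level of each of the 10 lineage genes in FPKM (vertical axis, from 0) in the 9 libraries by day, with symbols for replicates 1 to 3 and a bar for the mean and SD of the 3 libraries. The day 3 libraries of Pdgfra (8.48 to 8.67 FPKM), Cspg4 (9.09 to 9.49) and Gpr17 (36.9 to 38.1) lie above every other library, and day 21 replicate 2 is the highest of its day for Olig2, Olig1, Matn4 and Bcas1 and the lowest for Pdgfra, Cspg4, Gpr17, Enpp6 and Myrf.

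Total counts were 14299679 to 24022923 per library. Day 21 replicate 2 stood furthest apart, with correlations of 0.935 and 0.943 with the other day 21 libraries where all other pairs within a day reached 0.985 to 0.989. Its departure from them followed gene length, with a median of 0.37 log2 units in the shortest of 3 classes of genes (195 to 3488 bases) and -0.43 in the longest (7011 to 134526 bases). Results that it decides are given also without it. Day 0 replicate 1 also differed from its partners more than they did from each other, with a chi-square over degrees of freedom of 25.9 and 28.4 against 7.68. The day 3 libraries were close to each other, with coefficients of variation of 0.886 to 5.30% for the 10 genes. Over all genes with at least 20 counts in a pair, every pair within a day differed by more than counting error. The same measure was at least 6.92. The median chi-square relative to its value under counting error was 1.82 to 1.98 between day 3 libraries. Neither was taken for the 10 genes singly, and no libraries were merged. Markers of neural tissue, not particular to cord, were present at day 0. Levels were 323 ± 12.8 FPKM (mean ± SD, n = 3) of the neuronal Snap25, 553 ± 12.1 of the astrocytic Gfap and 255 ± 72.3 of the myelin gene Mbp. FPKM scales counts by gene length and library total, so that levels can be compared between genes. In day 21 replicate 2 such comparisons also carry its departure by gene length.

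Olig2, a basic helix-loop-helix factor required to specify the lineage, lies on chr16:91225550-91228677 (GRCm38, plus strand, ENSMUSG00000039830). Its neighbour and relative Olig1, which acts later in differentiation and repair, starts 41.1 kb after its end (chr16:91269772-91271933, plus strand, ENSMUSG00000046160), with 1 gene model, Gm37016, between them. Nkx2-2, a homeodomain factor of precursors and early oligodendrocytes, lies on chr2:147177546-147194243 (minus strand, ENSMUSG00000027434). No label or header says whether counting used strand, so reads of an overlapping gene on either strand cannot be told apart, and 9.67% of the Nkx2-2 exon bases overlap the antisense gene Nkx2-2os and 7.26% of those of Olig1 overlap Gm15966. The 250 bases before the Olig2 start site are shown because Olig2 was the factor that fell most, and the capitals mark a Sox core, letters ACAATG, here on the opposite strand and 68 bases before the start (RefSeq, GRCm38.p6, chr16:91225300-91225549, plus strand).
Olig2: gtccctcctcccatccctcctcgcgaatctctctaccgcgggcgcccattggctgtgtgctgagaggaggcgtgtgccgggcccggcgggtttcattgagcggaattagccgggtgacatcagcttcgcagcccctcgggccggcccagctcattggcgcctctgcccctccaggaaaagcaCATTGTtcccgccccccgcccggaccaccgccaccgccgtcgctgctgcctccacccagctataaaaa
The window holds 66.8% G and C and 22 CpG, beside medians of 52.4% and 6 over 32851 promoter windows of the same length.

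Olig2 transcripts stood at 34.9, 29.7 and 32.7 FPKM in replicates 1 to 3 at day 0, at 19.5, 20.4 and 21.4 at day 3, and at 20.7, 26.7 and 19.0 at day 21. Every injured library was lower than every day 0 library, and days 3 and 21 overlapped. The log2 fold change against day 0 was -0.72 ± 0.13 (SE) at day 3 (edgeR adjusted p 0.00178) and -0.68 ± 0.13 at day 21 (edgeR adjusted p 0.00462), a level 1.64-fold and 1.60-fold lower. Both calls held in each of 20 alternative settings, with edgeR, DESeq2 or limma adjusted p up to 0.0117 and 0.0291. Between days 3 and 21 the difference was 0.04 ± 0.13 (edgeR adjusted p 0.856), and -0.0977 without day 21 replicate 2 (edgeR adjusted p 0.357, range over all alternatives 0.357 to 0.990).

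Olig1 had the highest mean FPKM of the 10 genes at each day, with 152.8, 153.7 and 153.8 FPKM at day 0, 125.3, 120.8 and 123.8 at day 3, and 117.8, 146.6 and 104.5 at day 21. Here too the injured libraries all lay below the day 0 libraries, with day 21 replicate 2 closest to them. Its log2 fold change was -0.37 ± 0.12 at day 3 (edgeR adjusted p 0.0302) and -0.45 ± 0.12 at day 21 (edgeR adjusted p 0.0201). Both calls were fragile. The day 3 call was lost in 10 of 20 alternatives, among them the removal of any 1 day 0 or day 3 library (edgeR adjusted p 0.0587 to 0.0974, range over all alternatives 3.17e-05 to 0.0974). The day 21 call was lost in 9, among them the removal of any day 0 library or of day 21 replicate 1 (edgeR adjusted p 0.0582 to 0.0657, range over all alternatives 1.76e-05 to 0.101). Between days 3 and 21 Olig1 changed by -0.08 ± 0.12 (edgeR adjusted p 0.666), and without day 21 replicate 2 it fell by 0.21 (edgeR adjusted p 0.0273, range over all alternatives 0.0257 to 0.987). The ratio of Olig1 to Olig2 FPKM was 4.75 ± 0.401 at day 0, 6.04 ± 0.337 at day 3 and 5.56 ± 0.115 at day 21 (mean ± SD, n = 3).

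Nkx2-2 was measured at 5.17, 7.45 and 7.09 FPKM at day 0, at 6.74, 6.62 and 6.70 at day 3, and at 6.98, 6.36 and 5.34 at day 21. The days overlapped and day 0 replicate 1 was the lowest library. No comparison was called, with a 95% interval of -0.41 to 0.35 for the log2 fold change at day 3 (edgeR adjusted p 0.905) and -0.59 to 0.18 at day 21 (edgeR adjusted p 0.413).

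Pdgfra, the receptor for platelet-derived growth factor A that drives division and survival of precursors, lies on chr5:75152292-75198215 (plus strand, ENSMUSG00000029231). Cspg4 encodes the NG2 proteoglycan of the precursor surface and lies on chr9:56865104-56899870 (plus strand, ENSMUSG00000032911). Matn4 encodes a matrilin, an adaptor protein of the extracellular matrix, and lies on chr2:164389393-164405160 (minus strand, ENSMUSG00000016995). Overlap with other genes took 6.50% of the Pdgfra exon bases (Gm42802, Gm42803 and Mir7025) and 2.88% of those of Matn4 (Rbpjl). The windows before the start sites of Pdgfra (chr5:75152001-75152250) and Cspg4 (chr9:56864854-56865103) are shown because these 2 genes rose and fell back together (RefSeq, GRCm38.p6, plus strand). Neither holds any of the 3 motifs searched on both strands, the E-box CAGCTG, present in 13.0% of all windows, and the Sox cores ACAAAG and ACAATG, present in 16.5% and 10.7%, so nothing is in capitals.
Pdgfra: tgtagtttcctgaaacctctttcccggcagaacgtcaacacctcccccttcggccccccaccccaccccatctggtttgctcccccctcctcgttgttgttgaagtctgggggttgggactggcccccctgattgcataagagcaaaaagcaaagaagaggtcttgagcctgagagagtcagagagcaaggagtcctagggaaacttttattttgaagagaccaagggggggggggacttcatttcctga
Cspg4: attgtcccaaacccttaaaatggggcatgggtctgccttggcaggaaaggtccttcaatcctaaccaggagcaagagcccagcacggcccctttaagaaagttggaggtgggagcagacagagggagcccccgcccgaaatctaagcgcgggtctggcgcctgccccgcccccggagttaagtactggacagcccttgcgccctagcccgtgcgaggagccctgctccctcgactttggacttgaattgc
The Cspg4 window holds 12 CpG and 60.4% G and C, the Pdgfra window 4 and 54.4%.

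Pdgfra transcripts were at 4.09, 4.48 and 4.03 FPKM at day 0, at 8.67, 8.48 and 8.49 at day 3, and at 5.06, 3.11 and 5.60 at day 21. The day 3 libraries stood above all others, and day 21 straddled day 0 because replicate 2 was below it and replicates 1 and 3 above. Pdgfra rose 1.96-fold by day 3 (log2 fold change 0.97 ± 0.20, edgeR adjusted p 0.00398) and fell by 0.96 ± 0.20 on the log2 scale from day 3 to day 21 (edgeR adjusted p 0.00803). Against day 0 the value at day 21 was 0.01 ± 0.20 (95% interval -0.45 to 0.46, edgeR adjusted p 0.984). Without day 21 replicate 2 it was 0.23 and passed (edgeR adjusted p 0.0328, range over all alternatives 0.0328 to 0.9999), with the calls for day 3 unchanged.

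Cspg4 followed the same order of days with less spread. Its transcripts were at 3.99, 4.04 and 4.01 FPKM at day 0, at 9.49, 9.49 and 9.09 at day 3, and at 5.85, 4.68 and 5.76 at day 21. No library of a day overlapped another day. Cspg4 rose 2.25-fold by day 3 (log2 fold change 1.17 ± 0.12, edgeR adjusted p 5.23e-05) and fell by 0.86 ± 0.12 on the log2 scale from day 3 to day 21 (edgeR adjusted p 0.000959). The remaining difference of 0.31 ± 0.12 at day 21 missed the threshold (edgeR adjusted p 0.0783). It passed without day 21 replicate 2 (0.42, edgeR adjusted p 0.000848), with the length trend removed (0.33, edgeR adjusted p 0.0163) and in 5 other alternatives (range over all 0.000513 to 0.213).

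Matn4 transcripts were at 2.13, 2.06 and 1.83 FPKM at day 0, at 4.39, 4.30 and 3.97 at day 3, and at 3.22, 4.65 and 2.69 at day 21. Both injured days lay above day 0, and they overlapped each other because day 21 replicate 2 was the highest library of all. Matn4 was 2.03-fold higher at day 3 (log2 fold change 1.02 ± 0.18, edgeR adjusted p 0.00166) and 1.60-fold higher at day 21 (0.68 ± 0.18, edgeR adjusted p 0.0220). At day 21 it failed the threshold when any 1 day 0 library was removed (edgeR adjusted p 0.0587 to 0.0822) and with the 2 groups fitted alone (edgeR adjusted p 0.0698), over a range of 0.00289 to 0.0822. Without day 21 replicate 2, the highest library, the value was 0.45 (edgeR adjusted p 0.00992). Between days 3 and 21 it changed by -0.34 ± 0.18 (edgeR adjusted p 0.199), and -0.57 without day 21 replicate 2 (edgeR adjusted p 0.00252, range over all alternatives 0.000990 to 0.448).

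Many genes of other cells that can carry Pdgfra or Cspg4 also rose at day 3. All 10 fibroblast markers rose at day 3, and their summed level went from 40.0 to 42.2 FPKM across the day 0 libraries to 557 to 560 at day 3 and 290 to 359 at day 21. Collagen Col1a1 alone went from 7.20 ± 0.249 to 168 ± 2.05 and 78.0 ± 12.7 FPKM (mean ± SD, n = 3). All 10 fibroblast markers were still higher at day 21 than at day 0 (median log2 fold change 2.96). Pdgfra was not called there in the main fit (edgeR adjusted p 0.984) and was called higher without day 21 replicate 2 (edgeR adjusted p 0.0328). From day 3 to day 21, 7 of the 10 fell. Of 10 pericyte and smooth muscle markers 6 rose at day 3 (median log2 fold change 0.78), and 9 did without day 21 replicate 2. Their summed level was 55.2 to 57.6 FPKM at day 0, 293 to 302 at day 3 and 99.1 to 121 at day 21. At day 21 against day 0, 6 of the 10 were higher (median 0.47). The receptor gene Pdgfrb, which is on both the fibroblast and the pericyte list, was 3.08-fold higher (log2 1.62 ± 0.10, edgeR adjusted p 2.77e-06). Rgs5, on the pericyte list alone, was higher by 0.80 ± 0.13 on the log2 scale (edgeR adjusted p 0.000844). No marker of either list was at 0 at any day, and their part in the Pdgfra and Cspg4 values was not tested. The ratio of Pdgfra to Col1a1 FPKM was 0.583 ± 0.0164 at day 0, 0.0508 at day 3 and 0.0615 ± 0.0250 at day 21.

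Gpr17, a receptor of the G protein-coupled family that marks precursors as they commit and must be switched off for myelination, had the largest change of the 10 genes at day 3. Its transcripts (ENSMUSG00000052229) were at 13.4, 14.2 and 14.3 FPKM at day 0, at 38.0, 36.9 and 38.1 at day 3, and at 19.5, 13.7 and 17.5 at day 21. Every day 3 library was above 36 FPKM and no other reached 20, while day 21 replicate 2 lay within the day 0 range. Gpr17 rose 2.60-fold by day 3 (log2 fold change 1.38 ± 0.14, 95% interval 1.05 to 1.71, edgeR adjusted p 6.47e-05) and fell by 1.23 ± 0.14 on the log2 scale from day 3 to day 21 (edgeR adjusted p 0.000394). The value at day 21 against day 0 was 0.15 ± 0.14 (edgeR adjusted p 0.474), and 0.29 without day 21 replicate 2 (edgeR adjusted p 0.00986, range over all alternatives 0.00862 to 0.933). Of its exon bases 3.62% overlap Lims2.

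Bcas1, a protein of early myelinating and mature oligodendrocytes, lies on chr2:170346991-170427845 (minus strand, ENSMUSG00000013523), and 12.6% of its exon bases overlap the antisense genes Bcas1os1 and Bcas1os2. Its transcripts were at 119.6, 124.5 and 131.0 FPKM at day 0, at 113.7, 114.8 and 109.4 at day 3, and at 116.1, 136.4 and 108.0 at day 21. The day 3 libraries lay just below day 0 without overlap, and day 21 spanned both. The log2 fold change at day 3 was -0.20 ± 0.10 (edgeR adjusted p 0.135), and it passed without day 21 replicate 2 (-0.21, edgeR adjusted p 0.0160, range over all alternatives 0.000764 to 0.341). At day 21 it was -0.19 ± 0.10 (edgeR adjusted p 0.208) and -0.27 without that library (edgeR adjusted p 0.0105, range over all alternatives 0.00142 to 0.787).

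Enpp6, a choline-specific phosphodiesterase of newly forming oligodendrocytes, lies on chr8:46986925-47094895 (plus strand, ENSMUSG00000038173). Its window is shown because Enpp6 moved opposite to Gpr17 at day 3. The capitals mark the Sox core ACAATG, on the printed strand and 219 bases before the start site (RefSeq, GRCm38.p6, chr8:46986637-46986886, plus strand, 38.4% G and C).
Enpp6: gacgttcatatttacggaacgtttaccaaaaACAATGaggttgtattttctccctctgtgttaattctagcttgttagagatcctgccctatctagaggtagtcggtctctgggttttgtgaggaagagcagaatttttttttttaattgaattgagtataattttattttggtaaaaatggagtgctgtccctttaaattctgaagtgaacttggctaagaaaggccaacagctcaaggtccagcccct
Of the 6 lineage genes whose windows were searched, 2 (Enpp6 and Olig2) held this core, which 10.7% of all windows hold. A match of letters is a description, not a binding site.

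Enpp6 transcripts were at 6.76, 6.62 and 7.06 FPKM at day 0, at 4.08, 4.15 and 4.04 at day 3, and at 6.27, 3.65 and 6.96 at day 21. All day 3 libraries were below day 0, and at day 21 replicates 1 and 3 were near day 0 whereas replicate 2 was the lowest library of all. Enpp6 was 1.73-fold lower at day 3 (log2 fold change -0.79 ± 0.22, edgeR adjusted p 0.0158). That call narrowly missed the threshold without day 0 replicate 3, day 3 replicate 1 or day 3 replicate 3 (edgeR adjusted p 0.0502 to 0.0515, range over all alternatives 1.62e-06 to 0.0515). At day 21 against day 0 the value was -0.39 ± 0.22 (edgeR adjusted p 0.205), and -0.15 without day 21 replicate 2 (edgeR adjusted p 0.146, range over all alternatives 0.0583 to 0.491). Between days 3 and 21 it changed by 0.39 ± 0.22 (edgeR adjusted p 0.215), and 0.64 without day 21 replicate 2 (edgeR adjusted p 0.000158, range over all alternatives 0.000117 to 0.529).

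Myrf, the membrane-bound transcription factor that turns on myelin genes, lies on chr19:10208272-10240748 (minus strand, ENSMUSG00000036098). Its transcripts were at 23.5, 30.4 and 30.3 FPKM at day 0, at 30.0, 29.1 and 28.8 at day 3, and at 24.8, 15.2 and 25.0 at day 21. Days 0 and 3 overlapped, with day 0 replicate 1 the lowest of its day, and every day 21 library was below every day 3 library. The log2 fold change was 0.01 ± 0.20 at day 3 (95% interval -0.46 to 0.47, edgeR adjusted p 0.987) and -0.50 ± 0.20 at day 21 against day 0 (edgeR adjusted p 0.102). Between days 3 and 21 it was also -0.50 ± 0.20 (edgeR adjusted p 0.101), with -0.54 when the length trend was removed (edgeR adjusted p 0.0113) and -0.29 without day 21 replicate 2 (edgeR adjusted p 0.0674, range over all alternatives 0.00725 to 0.214). At day 21 against day 0 the value without that library was also -0.29 (edgeR adjusted p 0.0727, range over all alternatives 0.00260 to 0.293).

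**Figure D2:**
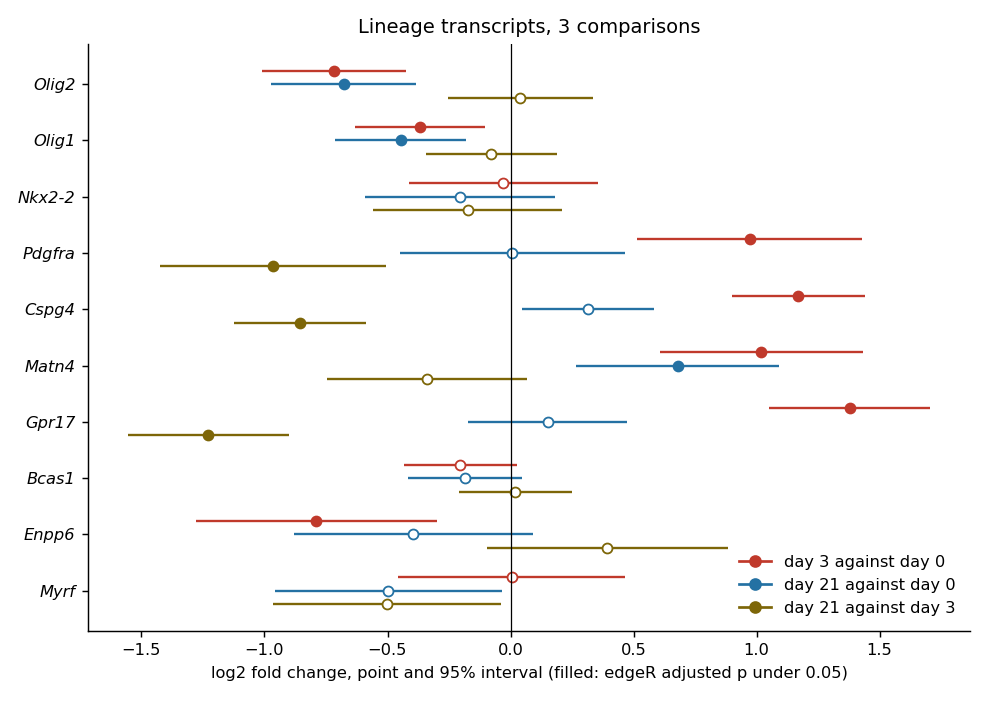
Log2 fold change of each lineage gene (horizontal axis) in the 3 comparisons, with a point for the edgeR estimate, a line for its 95% interval and a filled point where the adjusted p was under 0.05. Pdgfra, Cspg4 and Gpr17 show a rise at day 3 (0.97, 1.17 and 1.38) and a fall from day 3 to day 21 (-0.96, -0.86 and -1.23), while Olig2 is lower by like amounts at both injured days (-0.72 and -0.68).

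In order of mean FPKM, Pdgfra, Cspg4 and Gpr17 were highest at day 3, where they differed from day 21, next in order, and days 21 and 0 were not called different. Matn4 had the same order of days, but for it days 3 and 21 were not called different and days 21 and 0 were. Olig2 and Olig1 were highest at day 0, and their injured days were not called different, save for Olig1 without day 21 replicate 2 or with voom sample weights. Neighbours in the order of Nkx2-2, Bcas1, Enpp6 and Myrf were not called different. These are calls of the main fit, and many changed without day 21 replicate 2. In that setting days 21 and 0 were called different for Pdgfra, Cspg4, Gpr17 and Bcas1. Days 21 and 3 were called different there for Matn4 and Enpp6 as well as Olig1. Across all 10 genes the groups had no overlapping FPKM for 8 at day 3 against day 0, beside 67.5% of all tested genes. This was so for 4 at day 21 against day 0, beside 41.3% of all, and for 4 at day 21 against day 3, beside 44.4% of all.

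Ratios of FPKM between genes within a library are given as a description of these transcripts, without a test. The ratio of Gpr17 to Olig2 FPKM was 0.383, 0.478 and 0.439 at day 0, 1.95, 1.81 and 1.78 at day 3, and 0.941, 0.511 and 0.919 at day 21, so the 3 days did not overlap. For Pdgfra to Olig2 the mean went from 0.130 ± 0.0180 to 0.419 ± 0.0242 and 0.218 ± 0.0917. Day 21 replicate 2 (0.116) was just under the lowest day 0 library (0.117). Pdgfra is a long gene and Olig2 a short one, and the part of that library's departure by length in this ratio was not tested. Gpr17 to Enpp6 went from 2.05 ± 0.0859 to 9.21 ± 0.272 and back to 3.12 ± 0.617. Enpp6 to Pdgfra was 1.65, 1.48 and 1.75 at day 0, 0.471, 0.489 and 0.476 at day 3, and 1.24, 1.17 and 1.24 at day 21. This last ratio set the days apart and had day 21 replicate 2 close to the other day 21 libraries. Both genes were low in that library by like amounts (Enpp6 -0.90 and Pdgfra -0.82 log2 CPM), which largely cancel in a ratio. Gpr17 to Pdgfra moved less, from 3.33 ± 0.204 to 4.41 ± 0.0682 and 3.79 ± 0.636.

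**Figure D3:**
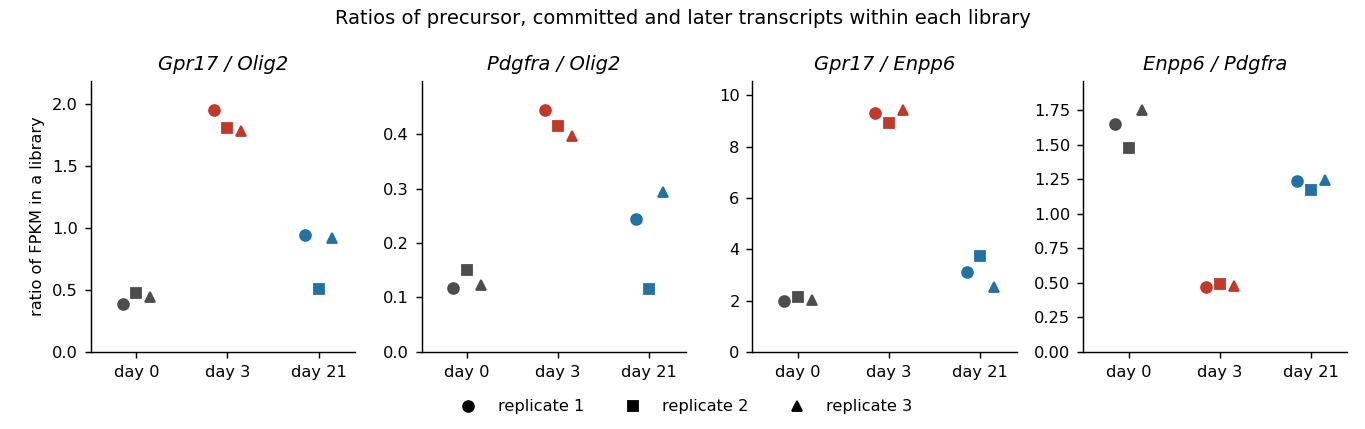
Ratios of FPKM between lineage genes within each library (vertical axes from 0) by day, with symbols for replicates 1 to 3. Gpr17 / Olig2, Pdgfra / Olig2 and Gpr17 / Enpp6 are highest in the 3 day 3 libraries (means 1.85, 0.419 and 9.21), and Enpp6 / Pdgfra is lowest there (0.479).

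The departure of day 21 replicate 2 differed from gene to gene. Relative to the mean of day 21 replicates 1 and 3, on the log2 CPM scale, Matn4 was 0.61 higher in it, Olig2 0.38, Olig1 0.35 and Bcas1 0.23, and Nkx2-2 differed by 0.01. Enpp6 was at -0.90, Pdgfra at -0.82, Myrf at -0.76, Gpr17 at -0.48 and Cspg4 at -0.36. Pdgfra (14968 bases) and Myrf (11582 bases) are among the longer genes and Olig1 (2162) and Olig2 (2437) among the shorter. Matn4, Gpr17 and Enpp6 have like lengths (5542, 5195 and 5675 bases), in the middle class of genes, with a median of -0.04, and departed in opposite directions. Without this library, 4 of the 10 genes were higher at day 3 than at day 0 (32.0% of 16739 tested genes were called higher) and 4 were lower (29.2% called lower), Bcas1 being added to the 3. At day 21, 4 of the 10 genes were higher at day 21 than at day 0 (25.1% called higher) and 3 were lower (22.4% called lower), and against day 3, 1 was higher (23.5%) and 5 were lower (25.7%).

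**Figure D4:**
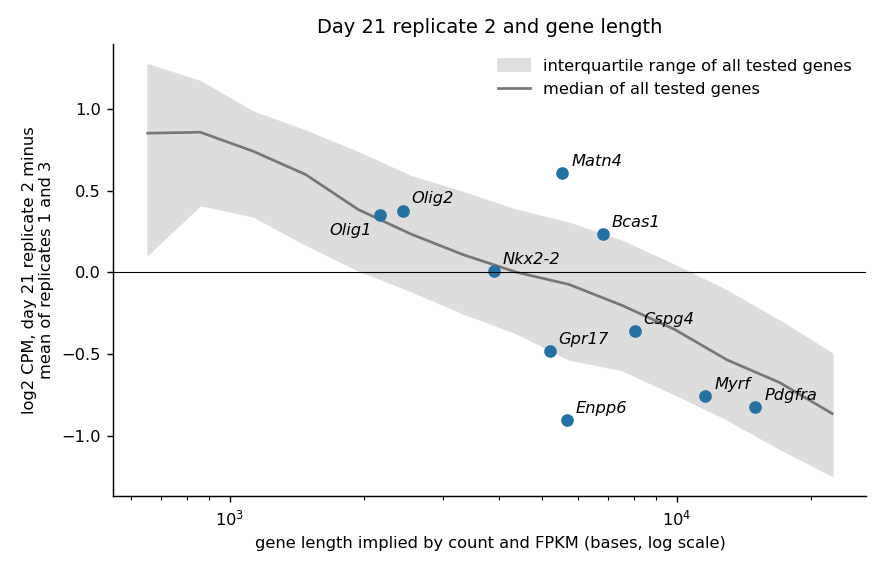
Departure of day 21 replicate 2 from the mean of the other day 21 libraries (log2 CPM, vertical axis) against gene length in bases (log axis) for the 10 lineage genes, with the median and interquartile range of all tested genes as line and band. The line falls from short to long genes, and Matn4 (0.61) and Enpp6 (-0.90) lie on opposite sides of the band at like lengths.

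Other genes of the lineage gave mixed counts, and a count near the share of all tested genes is not particular to a list. That share was 24.8% higher and 19.5% lower at day 3. It was 17.9% and 11.3% at day 21 against day 0, and 11.7% and 16.1% at day 21 against day 3. Without day 21 replicate 2 the shares, in the same order, were 32.0% and 29.2%, 25.1% and 22.4%, and 23.5% and 25.7%. Of 20 further precursor genes, 3 rose and 5 fell at day 3 (median log2 fold change -0.27, all tested genes 0.008). The 3 that rose were the proteoglycan Vcan (1.80 ± 0.26, edgeR adjusted p 0.000471), Tmem100 and the fatty acid binding protein Fabp7, and those that fell included the glutamate receptor subunit Gria3 (-1.64 ± 0.44, edgeR adjusted p 0.0136) and the transcription factor Sox8 (-0.41 ± 0.12, edgeR adjusted p 0.0191). Sox10, the factor present through the whole lineage and in Schwann cells, went from 67.8 ± 7.06 to 87.7 ± 3.38 and 65.0 ± 3.45 FPKM, missed the threshold at day 3 (0.32 ± 0.12, edgeR adjusted p 0.0538, and 0.0130 without day 21 replicate 2) and fell from day 3 to day 21 (-0.50 ± 0.12, edgeR adjusted p 0.0122). All 10 Schwann cell markers rose at day 3, from a summed 180 to 210 FPKM at day 0 to 677 to 694, and their part in the Sox10 values was not tested. At day 21 against day 0, 4 of the 20 precursor genes were higher, led by Fabp7 (1.67 ± 0.28, edgeR adjusted p 0.00235), and 3 lower, led by Megf11 (-0.66 ± 0.20, edgeR adjusted p 0.0358). From day 3 to day 21, 4 rose and 2 fell. Without day 21 replicate 2 these counts were 6 higher and 10 lower at day 3, 7 and 6 at day 21 against day 0, and 9 and 4 at day 21 against day 3.

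Of 19 tested genes of the committed and newly forming stages, 7 rose at day 3 and the other 12 were not called (median 0.25). Rras2, a small GTPase, rose most (1.71 ± 0.16, edgeR adjusted p 3.30e-05), and Bmp4, a growth factor that committed cells make, rose with 1.17 ± 0.19 (edgeR adjusted p 0.000837). The sialidase Neu4, made at the same stage as Gpr17, was at 2.79 ± 0.211, 3.44 ± 0.235 and 2.93 ± 0.128 FPKM over the days and was not called at day 3 (0.25 ± 0.11, edgeR adjusted p 0.0992, and 0.0405 without day 21 replicate 2). At day 21 against day 0, 2 of the 19 were higher. From day 3 to day 21, 1 rose (Bmp4) and 4 fell, led by the hyaluronidase gene Cemip2 (-1.21 ± 0.23, edgeR adjusted p 0.00530). Without day 21 replicate 2, 9 rose and 2 fell at day 3, and 5 were higher at day 21 than at day 0.

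Of 24 genes of mature oligodendrocytes, 12 fell and 3 rose at day 3 (median -0.36), 7 were lower and 2 higher at day 21 against day 0, and 7 rose and 3 fell from day 3 to day 21. Mbp, a structural protein of compact myelin, stood at 255 ± 72.3, 257 ± 9.18 and 234 ± 46.6 FPKM over the days and was not called at day 3 (-0.05 ± 0.23, edgeR adjusted p 0.888). The orphan receptor Gpr37 fell most at day 3 (-1.23 ± 0.10, edgeR adjusted p 1.13e-05), and the myelin-associated Opalin rose most from day 3 to day 21 (1.10 ± 0.19, edgeR adjusted p 0.00291). The 3 that rose at day 3 were Apod (1.98 ± 0.15, edgeR adjusted p 8.35e-06), Cldn11 and Trf, which encode a lipid carrier, a tight junction protein and the iron carrier transferrin. Without day 21 replicate 2 the lower count was 14 in place of 12 at day 3. At day 21 against day 0 it was 14 in place of 7.

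Among ligands and brakes of the lineage, 11 of 19 tested genes rose and 2 fell at day 3 (median 0.85). Pdgfa, the main ligand of the Pdgfra receptor, was at 5.82 ± 0.240, 7.72 ± 0.563 and 7.85 ± 4.04 FPKM and was not called at day 3 (0.36 ± 0.28, edgeR adjusted p 0.331), though it was without day 21 replicate 2 (edgeR adjusted p 0.00199). Pdgfb, a ligand of both receptors, rose (0.996 ± 0.102, edgeR adjusted p 5.24e-05), and the cytokine Lif rose most (3.33 ± 0.31, edgeR adjusted p 2.70e-05). At day 21 against day 0, 6 of the 19 were higher and 3 lower, and from day 3 to day 21, 2 rose and 9 fell. Without day 21 replicate 2, 14 rose and 3 fell at day 3. In the same setting 10 were higher at day 21 against day 0, and 4 rose and 11 fell from day 3 to day 21. All 10 cell division genes rose at day 3 (median 5.15), among them Mki67 from 0.0953 ± 0.0413 to 6.85 ± 0.198 FPKM, and all fell from day 3 to day 21 (median -2.44). In bulk tissue these transcripts carry no sign of which cells divided.

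**Figure D5:**
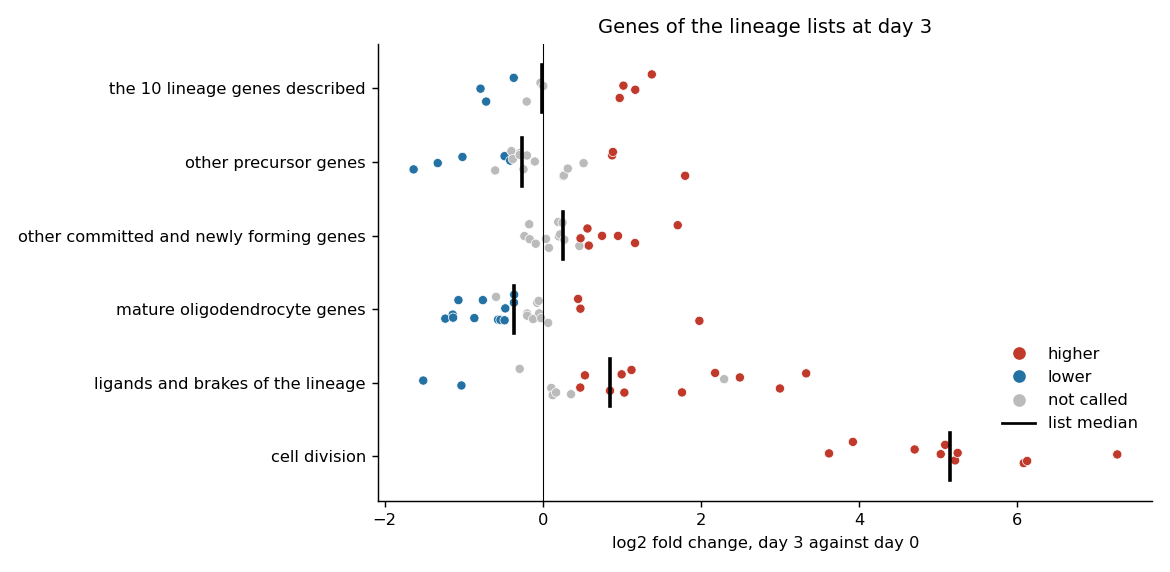
Log2 fold change at day 3 against day 0 (horizontal axis) of the 10 lineage genes and of 5 further lists, 1 point per tested gene, coloured by its edgeR call, with a bar at the list median. The 10 lineage genes and the other precursor genes lie on both sides of 0 (medians -0.012 and -0.27), mature genes lie mostly below (-0.36) and all 10 cell division genes lie above 3.

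Neuronal and vascular genes also moved at day 3. All 10 neuronal markers fell (median -1.22), from a summed 2049 to 2061 FPKM at day 0 to 1037 to 1049 at day 3 and 1383 to 1421 at day 21, beside the falls of Olig2, Olig1 and Enpp6. Of 10 endothelial markers 7 rose at day 3 (median 1.06), and 9 did without day 21 replicate 2. Their summed level went from 72.3 to 87.2 FPKM at day 0 to 202 to 212 at day 3. From day 3 to day 21, 8 fell (9 without that library), beside the rise and fall of Gpr17. All 10 microglia and macrophage markers rose (median 2.27). Of 10 astrocyte markers 5 rose and 3 fell, and of 10 ependymal markers 1 rose (2 without day 21 replicate 2) and 2 fell. None of these markers was at 0 at any day, and their part in the values of the lineage genes was not tested.

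Likeness was measured as Pearson's r of log2 CPM over the 9 libraries, against the 12135 tested genes whose mean reached 1 FPKM. The libraries fall into 3 days and share their depth and day 21 replicate 2, so these values are a description. Pdgfra was most like Chst11 (0.996), Spata13 (0.995) and Fbn2 (0.994), Cspg4 most like Myo1c (0.998), Piezo1 (0.997) and Serinc3 (0.997), and Gpr17 most like Cdh5 (0.996), Lamc1 (0.996) and Fosl2 (0.995). Olig2 was most like Ggt7 (0.991) and the myelin gene Mag (0.984) with Thoc5 (0.984), and Olig1 most like Srp68 (0.986), Hoxd9 (0.984) and H1f0 (0.982). Enpp6 was closest to Akap6 (0.998), Slc2a13 (0.996) and Marf1 (0.995), Matn4 to Mmp23 (0.994), Acads (0.990) and Coro1b (0.990), and Bcas1 to Sugp1 (0.992), Fgf18 (0.984) and Mrpl39 (0.981). Myrf was closest to Bcl9l (0.989) and Mamld1 (0.985). For Nkx2-2 the highest values were lower, with Dlgap4 (0.922), mt-Nd1 (0.919) and BC017158 (0.888).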

How the data were processed

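Per the labels' protocols, paired-end TruSeq libraries were made from poly-A RNA of mouse spinal cord. HISAT2, StringTie and GRCh38, a human build, are named in the submitters' processing notes, while gene loci in the table are on mouse GRCm38. Tool versions and strand use in counting are not given in the labels or headers. The authors deposited 1 table with raw whole-number counts for each gene, per the file headers. It also holds FPKM values by the authors, which equal count over gene length over library total to within 0.00117% over 12001 genes. Of 34745 gene IDs, 34267 were in GENCODE M21 and 27686 had the same locus.

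The test of days was edgeR 4.0.16 (R 4.3.3) on counts (TMM scaling, default expression filter, robust quasi-likelihood test, two-sided, Benjamini-Hochberg adjustment over all genes tested). The 9 libraries were fitted together (6 residual degrees of freedom, common biological coefficient of variation 0.205). The SE is the log2 fold change over the square root of F, and 95% intervals are from the same fit. Levels and their SDs are on the deposited FPKM. The labels do not state that replicate numbers pair the libraries, and the main fit used no pairing. Correlations of deviations were -0.15 to 0.11 for same-numbered libraries and -0.22 to 0.23 for others. With so few libraries these values cannot exclude a pairing. On simulated counts the test found 49.3% of genes changed 2-fold at day 3 against day 0, 40.3% at day 21 against day 0 and 49.3% at day 21 against day 3, and 2.99, 4.48 and 2.99% of those changed 1.5-fold, over 16258, 16265 and 16261 genes.

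The lineage genes and the lists were chosen with earlier results of these data known. Besides the 10 genes, the text names the first 2 genes of each list, the called gene with the largest rise and fall of each lineage list at 1 FPKM or more in the higher group, and the 3 most alike genes. Some genes that this rule took are not reported here. Tmem100, Cldn11 and Trf were named after their values were seen. Of 184 list entries 183 matched by symbol, Cemip2 through an older symbol and Itgam with a gene ID chosen among copies of its symbol. Promoter windows are RefSeq's, GRCm38.p6. The alternatives were DESeq2 1.42.0, limma 3.58.1 on log2(FPKM + 1) and log2(FPKM + 0.1), voom with sample weights, median-of-ratios scaling, library totals, no filter, a filter of 5 FPKM in 3 libraries, the 2 groups alone, the replicate block, each library left out and, added after seeing the data, removal of the gene-length trend.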

Additional observations from a re-analysis of the deposited data

Results flagged for a closer look

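For 3 of the 10 genes the change from day 0 differed between the injured days, by the edgeR test of day 21 against day 3 over all genes. For Pdgfra the day 21 change minus the day 3 change was -0.96 on the log2 scale (edgeR adjusted p 0.00803), with each day 21 library (3.11 to 5.60 FPKM) under each day 3 library (8.48 to 8.67). For Cspg4 the difference was -0.86 (edgeR adjusted p 0.000959), also with all 3 day 21 libraries lower. For Gpr17 it was -1.23 (edgeR adjusted p 0.000394), from 36.9 to 38.1 FPKM at day 3 to 13.7 to 19.5 at day 21. These 3 calls held in each of the 20 alternatives.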

How the results depend on the processing

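The calls of Pdgfra, Cspg4, Matn4, Gpr17 and Olig2 at day 3 and of Olig2 at day 21 held in every alternative run for them (Matn4 fell under the filter of 5 FPKM and was not tested there). The count of lower genes at day 3 was 3, with 1 to 4 when single libraries were left out. For day 21 against day 0, 1 gene was higher, and 2 were with library totals alone, with limma on log2(FPKM + 1) or log2(FPKM + 0.1) and with the length trend removed, 3 with voom weights, 0 with only the 2 groups and 0 to 4 with libraries left out. The lower count was 2, and was 1 with library totals, the 5 FPKM filter, limma at either pseudocount or only the 2 groups, 4 with voom weights and 1 to 3 with libraries left out. From day 3 to day 21, 0 were higher (1 with voom weights, 0 to 1 with libraries left out) and 3 lower (6 with voom weights, 3 to 5 with libraries left out). Voom weights also raised the calls over all 16494 genes, from 2949 to 4357 higher and 1864 to 3946 lower at day 21 against day 0, and from 1928 to 4419 higher and 2657 to 4832 lower at day 21 against day 3. Among the libraries left out, day 21 replicate 2 gave the highest of each of these counts, and the cause was not tested. With libraries left out, 2361 to 4891 of all genes were called lower at day 3. At day 21 against day 0, 2262 to 4207 were called higher and 1011 to 3748 lower. From day 3 to day 21, 1006 to 3941 were called higher and 1887 to 4305 lower. Library totals moved the median of all genes at day 21 against day 0 by 0.12 (3571 higher and 1076 lower in place of 2949 and 1864), and the 5 FPKM filter by 0.15 (1395 and 691 of 7640 tested). In that comparison limma on log2(FPKM + 1) called 3147 higher and 1269 lower, and on log2(FPKM + 0.1) 3422 and 1019. Removal of the length trend gave 3265 and 2534, and only the 2 groups gave 2108 and 801 of 15962 tested.

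Signs turned only for values that were not called. Nkx2-2 at day 3 was 0.0277 with library totals, 0.0299 with the 5 FPKM filter, 0.0358 with limma on log2(FPKM + 1) and 0.0429 on log2(FPKM + 0.1), and -0.2078 to 0.078 with libraries left out. Myrf at day 3 was -0.0079 with DESeq2, -0.0064 with median-of-ratios scaling, -0.0828 without a filter, -0.0856 with voom weights, and -0.138 to 0.0735 with libraries left out. Pdgfra at day 21 against day 0 was -0.0009 with DESeq2 and -0.0569 without a filter, and -0.1674 to 0.2319 with libraries left out. From day 3 to day 21, Olig2 was -0.0694 with voom weights, -0.0193 with the length trend removed and -0.0977 to 0.1308 with libraries left out. Olig1 was 0.004 with the 5 FPKM filter and -0.2056 to 0.0185 with libraries left out. Bcas1 was -0.0414 with voom weights and -0.064 to 0.083 with libraries left out. The cause was not tested for any of these.

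With the replicate number as a block, a pairing the labels do not state, 4 of the 10 genes were higher and 2 lower at day 3, since Olig1 missed the threshold (-0.37, edgeR adjusted p 0.0560). The block gave 1 higher and 2 lower at day 21 against day 0, with Pdgfra at -0.021 there, and 0 and 3 at day 21 against day 3. Of all 16494 genes the block called 3775 higher and 2814 lower at day 3. It called 2516 and 1318 at day 21 against day 0, and 1388 and 2252 at day 21 against day 3.

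With 3 libraries a group, 2.99% of simulated 1.5-fold changes were called at day 3 against day 0. The simulation changed 67 genes by 1.5-fold, 67 by 2-fold and 66 by 4-fold. In the data 4090 genes were called higher and 3217 lower, and more calls loosen the adjusted threshold. The simulated share is therefore not the share detectable in the data, where Olig1 was called at 1.29-fold lower.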

Other observations

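Several signalling genes around the lineage changed in opposite ways over the days. Shh, the morphogen that specifies oligodendrocytes in the embryo, went from 2.92 ± 0.149 to 13.7 ± 0.328 and 1.83 ± 0.0699 FPKM (mean ± SD, n = 3), with a log2 fold change of 2.18 at day 3 (edgeR adjusted p 5.54e-07), -0.79 ± 0.11 at day 21 against day 0 (edgeR adjusted p 0.000739) and -2.97 ± 0.11 at day 21 against day 3 (edgeR adjusted p 1.12e-06). Igf1, a growth factor for the lineage, was higher at day 21 than at day 0 by 2.77 ± 0.11 (edgeR adjusted p 8.28e-07). Bmp4 went on rising from day 3 to day 21 (0.55 ± 0.18, edgeR adjusted p 0.0455), from 1.80 ± 0.209 to 2.77 ± 0.345 FPKM, while Gpr17 fell. Hes5, a Notch target that holds precursors back, fell by 1.51 ± 0.36 on the log2 scale at day 3 (edgeR adjusted p 0.00821) and rose by 1.25 ± 0.37 from day 3 to day 21 (edgeR adjusted p 0.0345, and 0.0629 without day 21 replicate 2). Among the mature genes, Aspa was higher at day 21 than at day 0 (0.60 ± 0.19, edgeR adjusted p 0.0428, and 0.0588 without day 21 replicate 2) and Nipal4 lower (-0.82 ± 0.10, edgeR adjusted p 0.000468).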
